A study of Mus musculus with 2 samples.

Results

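The histone genes of mouse bone marrow-derived macrophages were examined, that is, every gene of the deposited table whose symbol begins with Hist, a digit and h, or with H2af, H3f or H1f. This rule took 55 of 16463 genes. Of these, 44 are clustered genes, which carry a Hist1, Hist2 or Hist3 symbol, and 11 are variant genes, which carry an H2af, H3f or H1f symbol. Macrophages were grown for 5 days from marrow of mice labelled C57BL/6J, in medium that held 10% serum and, as the source of macrophage colony-stimulating factor, 10% conditioned medium of the fibroblast line L929. The TKO mice lack 2 paralogous microRNA clusters throughout the body, mir-106a~363 (-/-) and mir-106b~25 (-/-), and the third, mir-17~92, is flox/flox with Lyz2-Cre. The WT mice carry Lyz2-Cre alone. Both genotypes therefore have Cre at the lysozyme M locus, which is active in myeloid cells, and mir-17~92 is deleted only where and when this Cre acts. The cells were not stimulated. Each genotype had 1 library, so no difference below has a replicate check, no test was possible, and intervals cover counting error only.

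Histones package DNA: a core of H2A, H2B, H3 and H4 is wrapped by DNA, and the linker histone H1 sits where the DNA enters and leaves. Clustered genes are transcribed in S phase, when new DNA needs new histones, and their mRNA ends in a short stem-loop bound by SLBP in place of a poly(A) tail. Variant genes give polyadenylated mRNA through the cell cycle and in cells that have stopped dividing, and their proteins replace the S-phase forms at particular sites. RNA was selected for poly(A) before sequencing, per the labels. The counts of clustered genes therefore describe molecules that passed this selection and not their total mRNA, and in these bulk cultures fewer dividing cells and less RNA per cell cannot be told apart.

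The stem-loop is the sequence that separates the classes, and it was looked for in the 150 bases after the stop codon of each GENCODE M21 transcript model on GRCm38. The motif was GGNNCTNNNNAGNNCC, which reads the same on both strands. It was found in 29 of the 33 clustered genes whose models hold at least 50 bases after the stop codon, and the other 11 could not be searched. Among the 10 variant genes searched, 1 had it. Of 20731 other coding genes, 0.675% had it. The forms are given because they set the H4 genes apart from the other clustered types; capitals mark the paired stem and lower case the loop. The first form was shared by 21 clustered genes of the H1, H2A, H2B and H3 types, the next by 3 H4 genes, and the last belonged to the variant gene H2afx.
Hist1h2ao, Hist1h2ap, Hist1h1c and 18 others: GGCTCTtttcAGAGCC
Hist1h4d, Hist1h4h and Hist1h4n: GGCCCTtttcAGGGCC
Hist1h4i: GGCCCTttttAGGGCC
H2afx: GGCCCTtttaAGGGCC
H2afx encodes H2AX, which is phosphorylated around DNA breaks, and its gene is known to give both a stem-loop and a polyadenylated mRNA. The 4 clustered genes searched without a match were Hist1h2bc, Hist2h2be, Hist1h2bq and Hist1h2br. The model of Hist1h2bc has a spliced 3' end, and that of Hist2h2be runs 2192 bases past the stop codon.

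The libraries held 10656465 estimated counts in TKO and 10877917 in WT. Mir17hg, the host transcript of mir-17~92, had 42 counts in TKO and 8 in WT, and Mcm7, the host of mir-106b~25, had 1083 in TKO and 1228 in WT. These are values of whole host genes and do not check the deletions. All 8 macrophage markers were abundant, with summed levels of 3790 FPKM in TKO and 3540 FPKM in WT (FPKM is fragments scaled for gene length and library size). Fibroblast and stroma markers were lower in TKO: all 7 had log2 ratios below 0, 4 were lower by the rule given below, their summed level was 25.2 FPKM in TKO and 83.8 FPKM in WT, and none was at 0 in either library. Their part in the histone results was not tested. Among 4 dendritic cell markers, 3 reached 20 counts and 2 were higher, with sums of 21.0 FPKM in TKO and 8.68 FPKM in WT. Of the neutrophil list, 4 of 5 markers were in the table and 1, S100a8, reached 20 counts and was higher. No B cell, T and NK cell or erythroid marker reached 20 counts, and their summed levels were 0.26, 1.87 and 0.23 FPKM in TKO and 0.24, 1.2 and 0.35 FPKM in WT.

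Among the histone genes a single pair stood out. A gene was called higher or lower in TKO by size: a change of at least 2-fold, a 95% counting interval that excludes no change, and at least 20 counts in 1 library. Of the 55 genes, 17 reached 20 counts, namely 7 clustered and 10 variant genes. No histone gene was called higher, against 2.43% of the 11525 genes past this minimum. The 2 genes called lower were Hist1h2ao and Hist1h2ap, against 2.3% of all genes past the minimum. No variant gene was called in either direction. The median log2 ratio of TKO over WT was 0.17 over the 7 clustered genes and 0.04 over the 10 variant genes, and it was 0.0043 over all 11525 genes. The ratio also followed gene length, and after removal of this length trend both class medians turned, to -0.09 for the clustered and -0.12 for the variant genes, and the clustered median was 0.02 with genes classed by the presence of a stem-loop.

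**Figure D1:**
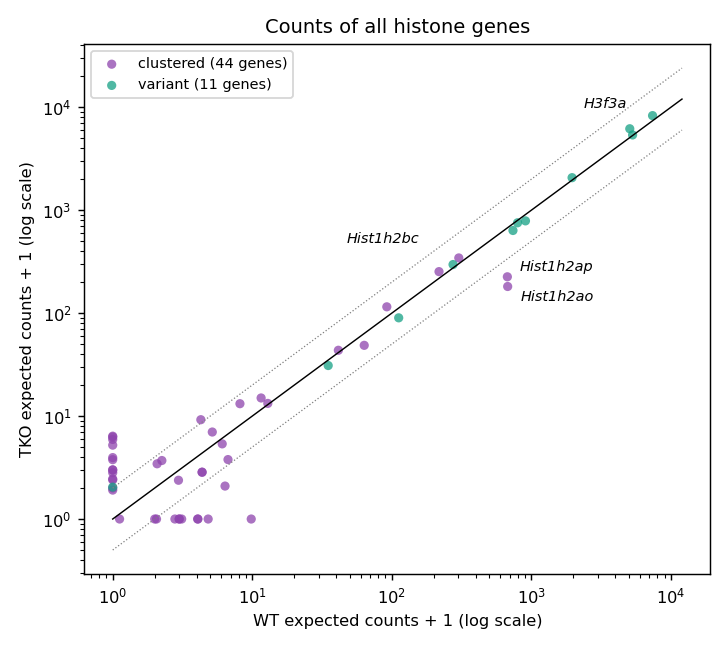
Estimated counts of all 55 histone genes in the TKO library (vertical axis) and the WT library (horizontal axis), each plus 1 on a log scale. The solid line marks equal counts and the dotted lines 2-fold differences before scaling. Hist1h2ao and Hist1h2ap, with 180 and 224 counts in TKO and 675 and 672 in WT, lie below the lower dotted line, while the other genes that leave the dotted band have fewer than 20 counts.

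The clustered genes were read unevenly. Together they had 1311 counts in TKO and 2152 in WT, and most of these fell on few genes. The 37 clustered genes under 20 counts summed to 107 counts in TKO and 93 in WT, a log2 ratio of 0.27 (95% interval -0.15 to 0.68). The highest of them had 13.99 estimated counts. Of all 44, 11 were at 0 in TKO and 13 at 0 in WT, and 24 were at 0 in exactly 1 library. At these counts no difference between the libraries was detectable for most single genes, and a log2 ratio in the authors' deposited table, which sets a 0 against 0.01 FPKM, carries no size for them. The authors' deposited table puts 3 clustered genes at an FDR of at most 0.05 and a log2 ratio of at most -1, against 1.97% of its 16463 genes. They are Hist1h2ao, Hist1h2ap and Hist1h2ag. Hist1h2ag, named here after its values were seen, had 0 counts in TKO and 9 in WT.

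H2A, which pairs with H2B in the core, was the type with the most clustered counts and the one whose sum passed the 2-fold limit. Hist1h2ao (Entrez 665433, chromosome 13, 21810465 to 21810944, plus strand, GRCm38) had 180 counts or 32.3 FPKM in TKO (95% interval 27.7 to 37.3) and 675 counts or 118 FPKM in WT (110 to 128). Hist1h2ap (Entrez 319171, chromosome 13, 21833026 to 21833507, minus strand) had 224 counts or 49.8 FPKM in TKO (43.5 to 56.8) and 672 counts or 146 FPKM in WT (135 to 158). For both genes the intervals of the libraries lie far apart. Hist1h2ao was 3.58-fold lower in TKO (3.04 to 4.25) and Hist1h2ap 2.87-fold lower (2.46 to 3.35), log2 ratios of -1.84 and -1.52. Summed, the pair had 405 counts in TKO and 1347 in WT, 3.18-fold lower, a log2 ratio of -1.67 (-1.83 to -1.51).

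Both genes are single-exon copies of one H2A gene, so their separate values rest on how the authors' counting divided shared reads. Their coding sequences did not differ at any of 393 bases. Of the 50-base stretches of Hist1h2ao, 93.5% also occur in another gene model, Hist1h2ap in every such case, and for Hist1h2ap the share is 93.1%. Hist1h2ao took 44.4% of the counts of the pair in TKO (39.5% to 49.4%) and 50.1% in WT (47.4% to 52.8%). These intervals, and those of each gene alone, do not cover error in the division of shared reads. Hist1h2ad and Hist1h2ag each differ from them at 3 coding bases, Hist1h2ac at 5, Hist1h2ae and Hist1h2ai at 6 and Hist1h2ak at 12. These 6 near copies together had 23 counts in TKO and 20 in WT, a log2 ratio of 0.27 (-0.66 to 1.21). Hist1h2ah, which shares 59.5% of the 50-base stretches of Hist1h2ad, is not in the deposited table. Whether reads of the pair were counted on other copies was not tested.

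The promoters of the pair were compared with those of Hist1h2ag and Hist1h2ad, the copies closest in coding sequence, because all 4 encode nearly the same H2A mRNA but only the pair had 20 counts. The sequences are 93 bases of the sense strand around the TATAA next to the start, from the RefSeq promoter table (GRCm38.p6). Capitals mark CCAAT or TATAA on either strand.
Hist1h2ao, chr13:21810324-21810416, plus strand: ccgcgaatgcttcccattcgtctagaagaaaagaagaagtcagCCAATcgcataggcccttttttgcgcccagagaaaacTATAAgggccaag
Hist1h2ap, chr13:21833526-21833618, minus strand: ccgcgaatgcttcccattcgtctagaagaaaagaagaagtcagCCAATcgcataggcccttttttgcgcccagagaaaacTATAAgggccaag
Hist1h2ag, chr13:22042980-22043072, minus strand: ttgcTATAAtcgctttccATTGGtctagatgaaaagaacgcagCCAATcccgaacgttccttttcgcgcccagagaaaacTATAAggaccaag
Hist1h2ad, chr13:23574331-23574423, plus strand: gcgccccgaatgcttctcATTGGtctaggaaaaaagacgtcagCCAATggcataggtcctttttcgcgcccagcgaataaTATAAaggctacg
Hist1h2ao and Hist1h2ap did not differ at any base of this window, while Hist1h2ag and Hist1h2ad differed from them at 35 and 31 positions without gaps. The windows were compared letter by letter, counted from TATAA. The stretch tctag lies nearer to CCAAT in Hist1h2ag and Hist1h2ad than in the pair. Bases before it were therefore compared out of step, and the 35 and 31 positions overstate how far the sequences differ. Hist1h2ag and Hist1h2ad hold a second CCAAT, on the other strand, that the pair lacks in this window. Next to tctag they read attgg, where the pair reads attcg. Over the 300 bases of the promoter table, CCAAT on either strand occurred in 36 of 41 clustered genes (87.8%), 6 of 9 variant genes (66.7%) and 41.0% of 26975 other genes. TATAA occurred in 33 of 41 clustered genes, 1 of 9 variant genes and 27.9% of the others. The octamer ATTTGCAT, a binding sequence of OCT factors, occurred in 9 of 41 clustered genes, all of them H2A or H2B genes, in 1 variant gene and in 1.94% of the others. These matches describe letters and not binding.

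Hist1h2ao and Hist1h2ap each face an H2B gene across a short gap. Hist1h2bq lies 268 bases from Hist1h2ao and Hist1h2br 236 bases from Hist1h2ap, each on the opposite strand from its H2A neighbour. Hist1h2bq and Hist1h2br, which share 97.3% of the 50-base stretches of Hist1h2bq, were listed with identical values, 2 counts in TKO and 3 in WT after rounding. Their H2A neighbours had over 100 counts in each library. Hist1h4n, 830 bases from Hist1h2ap, had 2 counts in TKO and 1 in WT. Within 100 kb on either side of the pair lie 11 other measured histone genes, none above 5 counts in TKO or 3 in WT. The difference was therefore seen at 2 genes of this stretch and could not be assessed at their neighbours.

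The other clustered H2A genes past the count minimum had ratios above 0, although that of Hist2h2aa1 turned to -0.09 with the length trend removed. Hist3h2a (Entrez 319162, chromosome 11, 58954685 to 58956830) had 114 counts or 22.3 FPKM in TKO (18.4 to 26.8) and 91 counts or 17.5 FPKM in WT (14.1 to 21.4). Hist2h2aa1 (Entrez 15267, chromosome 3, 96245497 to 96246082) had 43 counts or 7.56 FPKM in TKO (5.47 to 10.2) and 40 counts or 7.03 FPKM in WT (5.02 to 9.57). For both genes the intervals of the libraries overlap, with log2 ratios of 0.39 (-0.02 to 0.80) and 0.17 (-0.49 to 0.83). Hist2h2aa1 is uncertain on its own, since all of its 50-base stretches occur in other models; with its copy Hist2h2aa2 it had 57 counts in TKO and 51 in WT. The 14 clustered H2A genes summed to 600 counts in TKO and 1516 in WT, a log2 ratio of -1.27 (-1.41 to -1.13). Without Hist1h2ao and Hist1h2ap the other 12 had 196 counts in TKO and 169 in WT, a log2 ratio of 0.28 (-0.02 to 0.58).

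H2B was carried by 1 gene in both libraries. Hist1h2bc (Entrez 68024, chromosome 13, 23684199 to 23692908), the most abundant clustered gene by counts in TKO, had 343 counts or 46.2 FPKM in TKO (41.4 to 51.3) and 301 counts or 41.4 FPKM in WT (36.8 to 46.3). Its log2 ratio was 0.25 (0.03 to 0.48). Hist2h2be (Entrez 319190, chromosome 3, 96221119 to 96223738) shares no 50-base stretch with another gene. It had 48 counts or 1.67 FPKM in TKO (1.23 to 2.21) and 62 counts or 2.15 FPKM in WT (1.65 to 2.76), a log2 ratio of -0.30 (-0.88 to 0.26). The libraries overlap for Hist2h2be, and for Hist1h2bc they overlap as levels while the interval of the ratio lies just above 0. All 13 H2B genes summed to 423 counts in TKO and 380 in WT, a log2 ratio of 0.22 (0.02 to 0.42), which was 0.0075 with the length trend removed.

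Linker histone H1 was represented by Hist1h1c, which encodes H1.2, the clustered H1 gene known to make polyadenylated mRNA as well. Hist1h1c (Entrez 50708, chromosome 13, 23738808 to 23740367) had 252 counts or 33.7 FPKM in TKO (29.7 to 38.2) and 217 counts or 28.5 FPKM in WT (24.8 to 32.5). Its log2 ratio was 0.28 (0.01 to 0.55). The other 4 clustered H1 genes had at most 2 counts in a library. H3 and H4, which form the centre of the nucleosome core, were close to unread from the clusters. The 5 clustered H3 genes summed to 13 counts in TKO and 16 in WT, and the 7 clustered H4 genes to 22 in TKO and 18 in WT. Their log2 ratios were -0.23 (-1.41 to 0.91) and 0.36 (-0.61 to 1.34), so the H3 interval holds a value 2-fold lower in TKO and the H4 interval a value 2-fold higher.

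**Figure D2:**
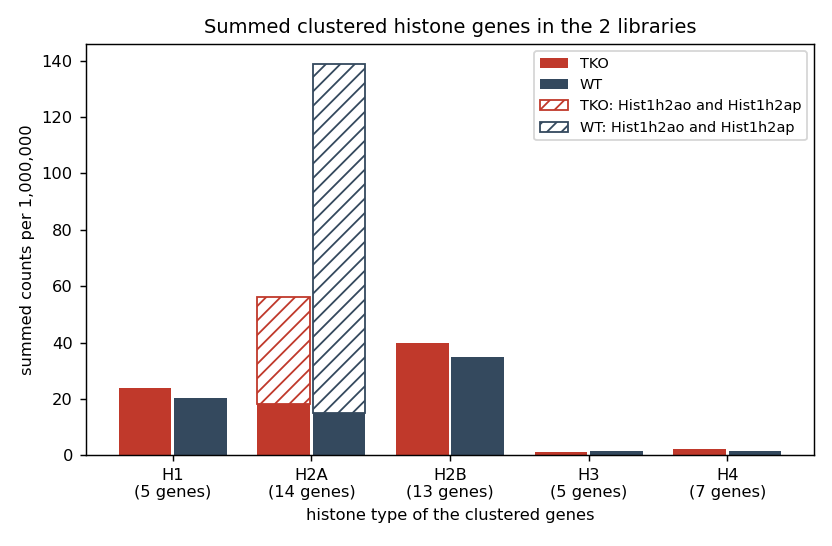
Summed counts, per 1e6 counts of the library total, for the clustered genes of each histone type, TKO left and WT right, 1 library each, so the bars carry no replicate error. The hatched part is Hist1h2ao and Hist1h2ap, 38.0 in TKO and 124 in WT, and without it the H2A bars stand near each other as those of the other types do.

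By genomic cluster the difference lay in Hist1. The 35 Hist1 genes, all on chromosome 13, summed to 1082 counts in TKO and 1940 in WT, a log2 ratio of -0.78 (-0.89 to -0.67). They include Hist1h2al, a processed pseudogene 27300 kb from its nearest Hist1 neighbour, with 1 count in TKO and 5 in WT. By its symbol it is also among the clustered H2A genes. Without the pair the sums were 677 in TKO and 593 in WT, a log2 ratio of 0.26 (0.10 to 0.42). The 7 Hist2 genes had 113 counts in TKO and 121 in WT, a log2 ratio of -0.03 (-0.42 to 0.35). The 2 Hist3 genes had 116 counts in TKO and 91 in WT, a log2 ratio of 0.42 (0.01 to 0.83).

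Clustered genes with 20 counts occurred among models that run far past the stem-loop and among those that end at it. Of the 29 clustered genes with a stem-loop, 15 have a GENCODE model that runs at least 100 bases beyond it, and 2 of these, Hist1h1c and Hist3h2a, reached 20 counts. Of the 14 that end sooner, 3 did, namely Hist1h2ao, Hist1h2ap and Hist2h2aa1. The models of Hist1h1c and Hist3h2a run on for 840 and 1643 bases, and those of Hist1h2ao and Hist1h2ap for 31 and 3. The authors' lengths equal the RefSeq span for 34 of the 44 clustered genes, so the deposited length of Hist1h1c is 725 bases and reads beyond the stem-loop may lie outside the counted model. They also occurred on both sides of sequence sharing: 3 of the 22 clustered genes with over 50% of their 50-base stretches shared reached 20 counts, and 4 of the other 22.

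The variant genes held most of the histone reads. They had 24500 counts in TKO and 22576 in WT, a log2 ratio of 0.18 (0.16 to 0.21), which was 0.038 with the length trend removed. Clustered genes made up 5.08% of all histone counts in TKO (4.81% to 5.35%) and 8.7% in WT (8.35% to 9.06%). This share and those within H1, H2A and H3 below describe poly(A)-selected RNA and not total histone mRNA.

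H3.3 was the most abundant in these poly(A)-selected libraries. It is the H3 form laid down outside S phase, and H3f3a and H3f3b encode the same protein. H3f3a (Entrez 15078, chromosome 1, 180800832 to 180813943) had 8288 counts or 728 FPKM in TKO (712 to 744) and 7383 counts or 636 FPKM in WT (622 to 651). H3f3b (Entrez 15081, chromosome 11, 116021912 to 116027962) had 6178 counts or 291 FPKM in TKO (284 to 298) and 5069 counts or 234 FPKM in WT (228 to 241). Neither pair of intervals overlaps, but the ratios are far under 2-fold, with log2 values of 0.23 (0.19 to 0.28) and 0.35 (0.30 to 0.40). Of the poly(A)-selected H3 counts, clustered genes supplied 0.0898% in TKO (0.0478% to 0.153%) and 0.128% in WT (0.0734% to 0.208%).

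Among H2A variants, H2A.Z led. H2afz (Entrez 51788, chromosome 3, 137864487 to 137866922), which encodes H2A.Z, a form found at promoters, had 5378 counts or 480 FPKM in TKO (468 to 493) and 5311 counts or 465 FPKM in WT (453 to 478). H2afv (chromosome 11, 6427229 to 6444443), the other H2A.Z gene, had 753 counts or 43.4 FPKM in TKO and 795 counts or 44.9 FPKM in WT. Their log2 ratios were 0.08 (0.03 to 0.14) and -0.01 (-0.16 to 0.13). H2afy (chromosome 13, 56073619 to 56136361), which encodes macroH2A1, a form with a large extra domain, had 2068 counts or 98.4 FPKM in TKO and 1956 counts or 91.3 FPKM in WT, a log2 ratio of 0.15 (0.06 to 0.24). H2afx (chromosome 9, 44334694 to 44336077), the variant gene with a stem-loop, had 786 counts or 52.6 FPKM in TKO (49.0 to 56.4) and 906 counts or 59.5 FPKM in WT (55.7 to 63.5). Its log2 ratio was -0.14 (-0.28 to 0.00). After removal of the length trend, H2afz was at -0.10 and H2afx at -0.29. H2afj (chromosome 6, 136808244 to 136810074) had 296 counts in TKO and 274 in WT. H2afy2 (chromosome 10, 61738665 to 61784147), which encodes macroH2A2, had 30 counts in TKO and 34 in WT. Their log2 ratios were 0.18 (-0.07 to 0.42) and -0.12 (-0.87 to 0.64). The processed pseudogene H2afy3 had 1 count in TKO and 0 in WT.

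By point value, linker variants lay on the other side of 0 from the clustered H1 gene. H1f0 (chromosome 15, 79028450 to 79030504), which encodes H1.0, a form of non-dividing cells, had 634 counts or 25.8 FPKM in TKO (23.8 to 27.9) and 737 counts or 29.4 FPKM in WT (27.3 to 31.6). H1fx (chromosome 6, 87980421 to 87981637) had 89 counts or 7.53 FPKM in TKO (6.05 to 9.27) and 111 counts or 9.21 FPKM in WT (7.58 to 11.1). For both, the libraries overlap. Their log2 ratios were -0.15 (-0.31 to 0.0035) and -0.25 (-0.67 to 0.16), and both intervals hold 0. Summed H1 variants had 723 counts in TKO and 848 in WT, a log2 ratio of -0.16 (-0.31 to -0.02). The clustered H1 sum was 253 in TKO and 221 in WT, and its log2 ratio exceeded that of the H1 variants by 0.43 (0.12 to 0.73). On its own that sum had a log2 ratio of 0.26 (-0.01 to 0.53), an interval that holds 0. It was 0.03 with the length trend removed, where H1f0 was at -0.22 and H1fx at -0.43. Clustered genes gave 25.9% of H1 counts in TKO (23.2% to 28.8%) and 20.7% in WT (18.3% to 23.2%).

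**Figure D3:**
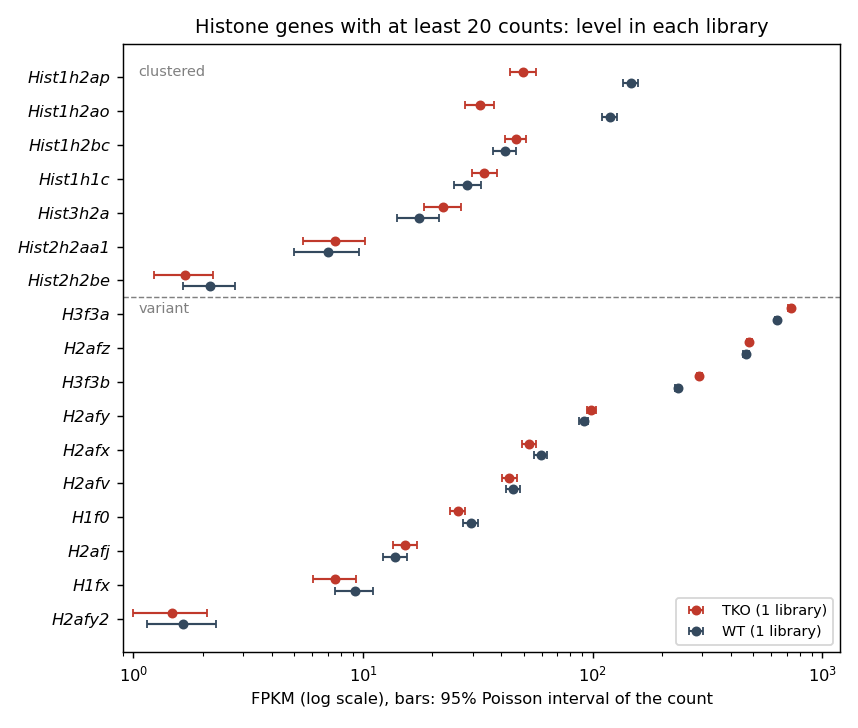
Level of each of the 17 histone genes with at least 20 counts in FPKM on a log scale, TKO above WT within each row, with 95% Poisson intervals of the single library's count. Hist1h2ap and Hist1h2ao have clearly separated points, 49.8 and 32.3 FPKM in TKO against 146 and 118 FPKM in WT, while the points of the other genes lie close together.

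The order of levels differed between the libraries mainly through the pair. In FPKM, H3f3a, H2afz and H3f3b held the first 3 places among the 17 genes in both libraries, each apart from the next by its counting interval. In TKO, Hist1h2ap was at place 6 and Hist1h2ao at place 10, with intervals that overlap those of H2afx and H1f0. In WT, the pair was at places 4 and 5, above H2afy, with intervals apart from it and from each other. The gap within the pair follows the deposited lengths, 452 bases for Hist1h2ap and 552 for Hist1h2ao. Their WT counts were 672 and 675. Since most of their sequence is shared, these estimated counts cannot show whether the 2 copies differ. Hist1h2bc stood at place 7 in TKO and 9 in WT, and its interval overlaps that of H2afv in both. The last places, held by Hist2h2be and H2afy2, overlap in both libraries.

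Set against each other, the classes differed, and the difference rested on the pair. The log2 ratio of the summed clustered genes was -0.65 (-0.75 to -0.55) and lay 0.83 below that of the summed variants, a difference of -0.83 (-0.94 to -0.73). Without Hist1h2ao and Hist1h2ap, left out after the data were seen, the other 42 clustered genes had 906 counts in TKO and 805 in WT. Their log2 ratio was then 0.24 (0.10 to 0.37), and the difference from the variants was 0.05 (-0.09 to 0.19). Within H2A, where both classes have members, clustered genes gave 6.05% of counts in TKO (5.59% to 6.54%) and 14.0% in WT (13.4% to 14.7%), and the difference of log2 ratios was -1.34 (-1.49 to -1.20).

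Short genes as a whole had ratios above 0, and most clustered genes are short. The 171 genes under 600 bases with at least 20 counts had a median log2 ratio of 0.26, with 6 called higher and 4 lower, and Hist1h2ao and Hist1h2ap are 2 of those 4. The deposited length has a median of 497.5 bases over the clustered genes and 1827 over the variants. With the trend of the ratio with length removed, Hist1h2bc was at 0.02, Hist1h1c at 0.05 and Hist3h2a at 0.12, and Hist1h2ao and Hist1h2ap were at -2.11 and -1.81. H3f3b was then at 0.26, against 0.35 before, and H3f3a at 0.05, against 0.23 before. The small positive ratios of Hist1h2bc, Hist1h1c and Hist3h2a were thus close to those of genes of like length, from which the pair lay further than from 0.

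**Figure D4:**
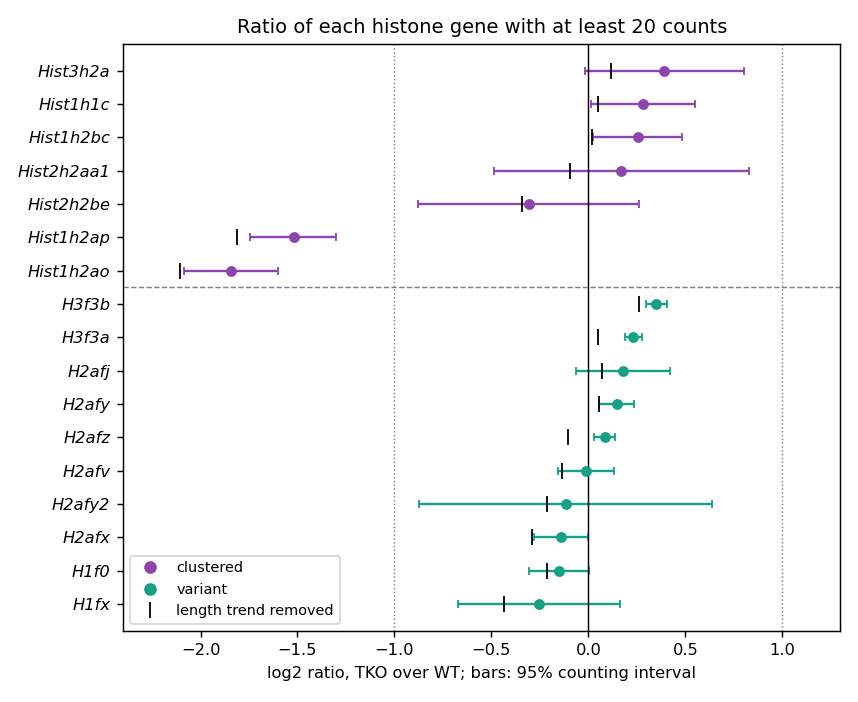
Log2 ratio of TKO over WT for the 17 histone genes with at least 20 counts, with 95% counting intervals (bars) and the value after removal of the length trend (black ticks); dotted lines mark 2-fold. Hist1h2ao and Hist1h2ap lie at -1.84 and -1.52, and the other 15 genes lie between -0.30 and 0.39.

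Genes that make, carry and use histones were compared next, as lists. No member of any of the 4 lists was called higher or lower, against 2.43% and 2.3% of the 11525 genes past the minimum. The median log2 ratio of those 11525 genes was 0.0043. The lists overlap, as Slbp and Ccne1 are also in the S phase list. For transcription and 3' end processing of histone mRNA, all 30 genes reached 20 counts, with a median log2 ratio of 0.03 (range -0.49 to 0.50) and 16 above 0. Slbp, which encodes the protein that binds the stem-loop, had 638 counts or 31.2 FPKM in TKO and 636 counts or 30.7 FPKM in WT, a log2 ratio of 0.07 (-0.09 to 0.23). Npat, which switches on the clusters in S phase, had 407 counts in TKO and 504 in WT, a log2 ratio of -0.24 (-0.43 to -0.05). Both turned with the length trend removed, to -0.03 for Slbp and 0.05 for Npat. The 2 highest were Lsm10 at 0.50, a part of the U7 particle that cuts the 3' end, and Lsm1 at 0.46, which takes part in mRNA decay. The 2 lowest were Casp8ap2 at -0.49, a protein of the histone locus body also called FLASH, and Ccne1 at -0.43, a cyclin that acts at S phase entry. After removal of that trend Lsm10 was at 0.30, Lsm1 at 0.41, Casp8ap2 at -0.24 and Ccne1 at -0.52, and Zfp473, at -0.29, lay below Casp8ap2. With Lsm10 and Lsm1 above 0 and Casp8ap2 below, the list has no common direction.

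Histone chaperones, which carry histones to and from DNA, had a median of -0.16 over 36 genes (range -0.70 to 0.69), with 27 below 0, and the median was -0.06 after removal of the length trend. Daxx, which places H3.3 together with Atrx, was the highest at 0.69 (0.55 to 0.83), with 1096 counts in TKO and 710 in WT, while Atrx was at -0.63 (-0.73 to -0.53), with 1350 counts in TKO and 2188 in WT. Znhit1, a part of the complex that inserts H2A.Z, was at 0.51. Other parts of it, named here after their values were seen, had no common direction. Srcap was at -0.50, Yeats4 at 0.23 and Vps72 at 0.15. Ubn2, of the HIRA complex for H3.3, was lowest at -0.70. With that trend removed, Daxx was at 0.65, Znhit1 at 0.31, Atrx at -0.22 and Ubn2 at -0.18. Srcap was then at -0.07, Yeats4 at 0.09 and Vps72 at 0.01.

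S phase genes, which mark the cells that would be making clustered histones, had a median of -0.19 over 34 genes (range -0.64 to 0.24), with 26 below 0. Pcna, the sliding clamp of DNA polymerase, had 2938 counts or 221 FPKM in TKO and 3555 counts or 263 FPKM in WT, a log2 ratio of -0.21 (-0.28 to -0.14). The lowest were Pole at -0.64 and Dut at -0.50, and the highest Rfc4 at 0.24 and Tyms at 0.23. G2/M genes had a median of -0.15 over 30 genes (range -0.56 to 0.12), with 25 below 0. Their lowest were Espl1 at -0.56 and Mki67 at -0.49, and their highest Kif23 at 0.12 and Ccnb2 at 0.06. With the length trend removed, Mki67 was at -0.08, Pcna at -0.38, the S phase median at -0.18 and the G2/M median at -0.12.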

How the data were processed

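Polyadenylated RNA was measured in 2 libraries, 1 for each genotype. The deposited expected counts are the authors' estimated reads per gene (per the submitters' processing notes, RSEM 1.2.12, Bowtie2 2.2.5, HISAT2 2.0.4 and mm10, with no roles stated). The deposited FPKM values are scaled for gene length and depth, and genes at 0 counts are listed at 0.01. The deposited log2 ratio and p-value are the authors', whose test the sources used here do not give. How the authors made the deposited FDR is not given either, and it is treated as a score, since 713 of its values exceed 1. No column of sample values went unmatched.

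After rounding, counts were scaled by TMM (edgeR 4.0.16, R 4.3.3). Sums were taken over estimated counts and then rounded. Ratios have exact conditional binomial (Clopper-Pearson) 95% intervals, shares exact binomial ones, FPKM exact Poisson ones, and differences between classes exact intervals of the odds ratio (scipy 1.17.1). The reads carry no molecular identifiers and may repeat molecules, so all cover counting error only. The size rule (2-fold, counting interval without 0, 20 counts in 1 library) was run on simulated Poisson counts. These hold no spread between cultures, so the run checks the computation and not the calls. The length trend was a lowess curve (statsmodels 0.14.6, span 0.3). Models and 50-base matches came from GENCODE M21, where 43 clustered and 10 variant genes matched by Entrez identifier; promoters of 41 clustered and 9 variant genes came from RefSeq. Genes with at least 20 counts could be named, and from each list Slbp, Npat, Mki67 and Pcna, called genes and the 2 highest and lowest. Members and lists were chosen with earlier results of these data known.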

Additional observations from a re-analysis of the deposited data

How the results depend on the processing

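With library totals or DESeq2 1.42.0 size factors in place of TMM, no called gene changed. Removing Hist1h2ao and Hist1h2ap, chosen after seeing the data, left 0 clustered genes lower and put the clustered sum at 0.24, the H2A sum at 0.28 (a reversal), the Hist1 sum at 0.26 and the class difference at 0.053 (log2, as below). Keeping only genes with at most 50% of 50-base stretches shared, which drops the pair, likewise left 0 lower, with a clustered sum at 0.25 and a class difference at 0.064. A 4-fold threshold left 0 clustered genes lower.

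FPKM ratios put the clustered sum at -0.82, the variant sum at 0.14, the Hist1 sum at -0.97, the class difference at -0.96 and the chaperone median at -0.20. The FPKM rule, which has no interval, called 2 clustered genes higher, Hist1h2ai and Hist1h2bj, each with 5 counts in TKO and 0 in WT, and added Hist1h2ag to those lower. Without the length trend the clustered sum was -0.90, the H2A sum -1.55, the Hist1 sum -1.03, the H2B sum 0.0075 and the variant sum 0.038. With library totals the variant sum was 0.15 and the chaperone median -0.19. With H2afx counted as clustered the clustered sum was -0.48 and the class difference -0.67. Beyond the removed genes and the length trend itself, the cause was not tested. No Hist4 gene was analysed here.

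No paired analysis was possible because each genotype has 1 library. Without a replicate, the spread between cultures is unknown, and the 37 clustered genes under 20 counts limit what can be said of most H3, H4 and H2B genes.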
